A study of Mus musculus with 2 samples.

Results

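The cells described here are 72 muscle stem cell progeny from the 90 percent library in which a set of 4 differentiation genes stood higher than any of 5 other gene sets. They were taken from 603 cell barcodes with at least 20000 unique molecular identifiers (UMIs, the counted RNA molecules) and no UMI of Ptprc, the pan-leukocyte surface protein CD45. For each gene, log2(CPM + 1), where CPM is the count of a gene scaled to a fixed library total, was turned into a z-score over the 606 barcodes of that depth, 3 of which had Ptprc UMIs, and the z-scores were averaged over the 4 genes of each set. Set D held Myog, Mymk, Cdkn1c and Ak1, and a barcode with its highest mean in set D is called a D cell here. Set S held Mcm5, Mcm6, Pcna and Tyms, and set M held Ccnb1, Cdc20, Cdk1 and Birc5. Set I held Ifit1, Isg15, Iigp1 and Ifi27l2a, set N held Nupr1, Neat1, Hmox1 and Ndrg1, and set H held Hspa1a, Fosb, Smad7 and Atf3. The D cells made up 11.9% of the 603 barcodes (exact binomial 95% interval 9.46 to 14.8), beside 72 S cells, 139 M cells, 62 I cells, 150 N cells and 108 H cells, and the 2 tables of the series held 4992 barcodes in all. Because measured values chose the D cells, the levels of the 24 set genes are given as a description.

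The study sequenced single muscle stem cells by short and long reads from 1 droplet capture (10x 3′ v2). Cells came from hindlimb muscle of mice carrying Pax7creERT2, in which tamoxifen induces a YFP reporter (R26R-YFP) wherever the Pax7 gene is active, on a C57BL6 background and tamoxifen-treated at 3 months of age. YFP-positive cells were sorted both from uninjured muscle (quiescent) and from muscle injected with 40 uL of 1.2% barium chloride 72 h earlier (activated). Both kinds were mixed, no label says which cell had which origin, and the droplets were then divided into a 10 percent and a 90 percent library. The gate kept any cell whose ancestor had expressed Pax7, whatever it expressed at sorting. How many mice were pooled is not given in the sources used here. With 1 capture there is no replicate and no test, so all intervals cover counting error only and all comparisons describe these cells. A gene was called higher or lower when the summed levels of 2 groups, with 1 CPM added to each, differed by more than 1.5-fold.

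Muscle stem cells are quiescent in resting muscle and enter the cell cycle after injury, when their daughters, the myoblasts, divide under the transcription factor Myod1. A myoblast that commits to differentiation switches on myogenin (Myog), leaves the cell cycle with the help of cyclin-dependent kinase inhibitors, and fuses with its neighbours through the membrane proteins myomaker (Mymk) and myomixer (Mymx). The fused cell then builds sarcomeres, the contractile units of actin, myosin, troponin and titin, together with the membranes and channels that couple a nerve signal to contraction.

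The 2 libraries held some of the same barcodes. The tables shared 634 barcodes, and of the 606 deep barcodes of the 90 percent library 207 were also listed in the 10 percent table, 99 of them with at least 1000 UMIs there. Deep in both were 76 barcodes, and for 76 of 76 the closest profile in the other library was that of the same barcode, at a median correlation over genes of 0.937 against 0.683 for other barcodes. Of the 72 D cells 9 had at least 1000 UMIs in the 10 percent library, and without such barcodes the share was 12.5% (63 of 504). D cells held a median of 42995.5 UMIs (21632 to 83359) and the other 531 deep barcodes 47756 (20025 to 128997). When each was thinned to 20000 UMIs, D cells had UMIs of a median of 3591 genes and the others of 3763. The mitochondrial share had a median of 1.32% in D cells and 1.16% in the others.

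Of the 4 genes that chose the D cells, Myog had the most UMIs (1746). Myog (ENSMUSG00000026459, chromosome 1, 134289989 to 134292548, GRCm38) stood at 551 CPM summed over the D cells (interval 525 to 577) and at 17.0 CPM in the other deep barcodes (15.5 to 18.6). Per cell, Myog ranged from 0 to 5725 CPM with a median of 54.7, and it had UMIs in 50 of the 72 D cells and in 95 of the 531 others. Most of the Myog RNA thus lay in a few cells, with 7 D cells holding at least 50% of its UMIs. Mymk, the membrane protein that drives myoblast fusion (chromosome 2, 27061636 to 27072179), stood at 104 CPM in D cells and 9.15 in the others, with UMIs in 51 D cells and a per-cell median of 53.1 CPM. Cdkn1c, the cyclin-dependent kinase inhibitor p57 (chromosome 7, 143458339 to 143461050), stood at 197 and 10.5 CPM, with UMIs in 43 D cells and a per-cell median of 22.8 CPM. Ak1, adenylate kinase 1, which balances adenine nucleotides in muscle (chromosome 2, 32621758 to 32635058), was the most widespread and the least selective of the set. Its UMIs were in 60 D cells, it stood at 102 against 30.5 CPM, and it was also at 63.9 CPM in the I cells.

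The 4 genes did not travel together in every D cell. UMIs of all 4 were found in 19 D cells, of 3 in 30, of 2 in 15 and of 1 in 8. Of these last 8, the single gene was Ak1 in 7 and Myog in 1, so the name of a committing myoblast rests on Ak1 alone in those 7. The lead of set D over the next set had a median of 0.415 (0.00393 to 2.69) on the z-score scale. It was under 0.1 in 11 D cells and at least 0.5 in 34, and 10 other barcodes had set D within 0.1 of their highest set. The D cells are therefore a range cut by a score, and not a group with a gap around it. Just inside the cut lay a cell with a set D mean of 0.108 over a set I mean of 0.104, with 13 Myog UMIs, and a cell at 0.0598 over a set S mean of 0.0420, with 16 Ak1 UMIs. Just outside lay a cell at 0.796 under a set M mean of 0.797, with 4 Mymk UMIs, and a cell at -0.0432 under a set S mean of -0.0286, with 7 Ak1 UMIs. In 3 D cells the set D mean itself was below 0.

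**Figure D1:**
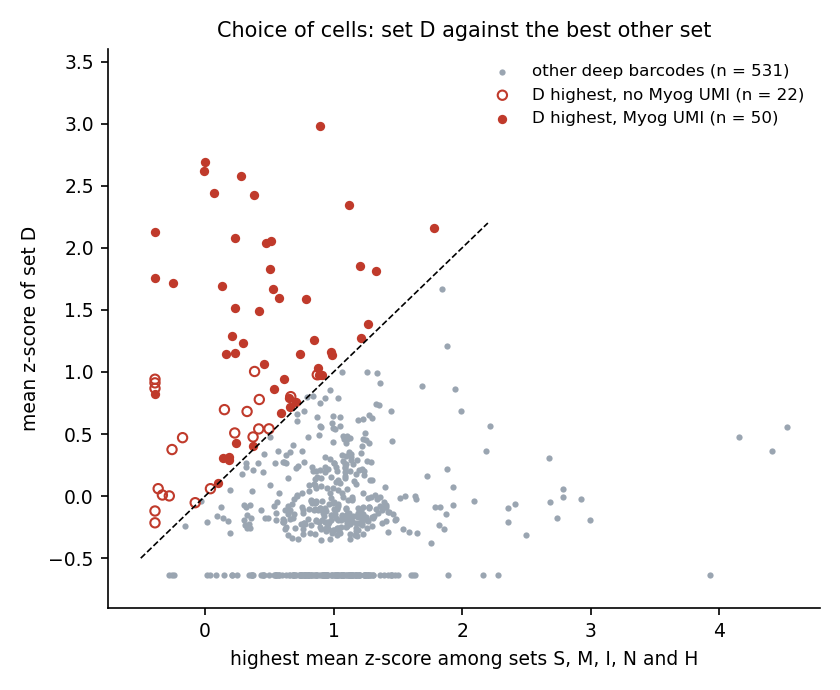
Mean z-score of set D (vertical axis) against the highest mean z-score among sets S, M, I, N and H (horizontal axis) for the 603 deep barcodes without Ptprc UMIs, each point 1 cell. The 72 D cells (red, filled for the 50 with a Myog UMI and open for the 22 without) lie above the dashed line of equality, and cells run across that line without a gap, 11 D cells having a lead under 0.1.

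Genes of sets S, M and N were low in most D cells. The median over D cells was 23.1 CPM for Pcna, the sliding clamp of DNA replication, against 97.0 in the other barcodes. It was 20.4 CPM against 149 for Birc5 (survivin, a chromosome passenger protein), 26.2 against 47.5 for Tyms (thymidylate synthase) and 43.6 against 60.4 for Hmox1 (haem oxygenase). For the other 16 genes of sets S, M, I, N and H the median D cell had no UMI. For the 8 of these in sets I and H, the median other barcode had none either. Some D cells kept a cycling profile all the same, with Cdk1 reaching 634 CPM in 1 of them and set M being the runner-up in 10 and set S in 11. Set I was the runner-up in 20, set H in 19 and set N in 12.

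When 1 gene was taken out of set D and the cells were chosen again, the gene left out was still higher in the cells chosen by the other 3. Without Myog the choice again gave 72 cells, 57 of them D cells, in which Myog stood at 493 CPM against 23.6 in the rest and had UMIs in 48.6% against 20.7%. Cdkn1c stood at 159 against 12.8 CPM in the 78 cells chosen without it, and Mymk at 85.6 against 12.2 CPM in the 67 chosen without it. Ak1 differed least, at 69.5 against 34.1 CPM in 74 cells. These choices share most of their cells and 3 of their 4 genes with the first one, so they are not independent of it.

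Among 8660 genes with a mean of at least 5 CPM, outside the 24 set genes, 426 (4.92%) were higher and 1063 (12.3%) were lower in D cells than in the other deep barcodes, and the median gene differed by -0.07 on the log2 scale. The genes with the largest differences were those of the contractile apparatus. Of the 15 highest, 9 encode actin, myosin light chains, troponins or the calcium pump that serves them: Acta1, Mylpf, Myl1, Myl4, Tnnt1, Tnni1, Tnnc2, Tnnt3 and Atp2a1. The other 6 were Mymx, the creatine kinase Ckb, the imprinted RNA H19, Tmem38a (a potassium channel of the sarcoplasmic reticulum), R3hdml and Arpp21. Of these 15, Acta1, Mymx, Myl4, Tnni1, R3hdml and Tmem38a were under the minimum in the other barcodes and passed it only through the D cells. All 15 stayed past 1.5-fold without the barcodes shared with the other library, and also without the D cell that held the most UMIs of each gene.

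Acta1, skeletal muscle alpha-actin, stood at 136 CPM in D cells and 2.97 in the others, a log2 difference of 4.79 to 5.42. Its UMIs were in 16 of 72 D cells and 39 of 531 others, and 251 of its 430 UMIs came from 1 D cell. Without that cell it was 3.87, so the gene remained high but its level rests on few cells. Mylpf, the regulatory light chain of fast myosin, was more evenly spread. It stood at 198 against 5.84 CPM, a log2 difference of 4.86 (4.57 without its highest cell), with UMIs in 26 D cells. The essential light chains followed, Myl1 (fast) at 69.1 against 4.48 CPM in 25 D cells and Myl4 (embryonic and atrial) at 52.1 against 3.46 CPM in 17. Their differences of 3.68 and 3.57 became 2.82 and 2.81 without the highest cell.

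The troponins, which make the thin filament sensitive to calcium, came from both slow and fast fibre types. Tnnt1 and Tnni1, the slow troponins T and I, stood at 105 against 12.6 CPM and 36.3 against 4.10 CPM, with UMIs in 39 and 18 D cells. Tnnt3 and Tnnc2, the fast troponins T and C, had log2 differences of 2.57 and 2.69, with UMIs in 45 and 15 D cells. Slow, fast and cardiac-type (Tnnt2, log2 difference 2.07) troponin genes were thus all higher in the summed D cells. Atp2a1, the calcium pump of the fast-fibre sarcoplasmic reticulum, stood at 26.2 against 4.59 CPM.

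Of the sarcomere and contractile list 23 of 56 genes reached the minimum. Of these 20 were higher and 0 lower, beside 4.92% and 12.3% of all genes, with a median log2 difference of 1.64. Acta1, Myl4 and Tnni1 passed the minimum only through the D cells, so they had to differ, and with the minimum taken over the other barcodes alone 17 of 20 were higher and 0 lower. Besides those named, Neb (nebulin, 2.28), Tnni2 (fast troponin I, 1.88), Actn3 (a Z-disc actinin, 1.64) and Ttn (titin, 210 against 76.7 CPM, 1.44) were higher. Genes that the other barcodes already carried differed less. Des, the intermediate filament of muscle cells, had UMIs in 72 of 72 D cells and 526 of 531 others and stood at 724 against 370 CPM, and Tpm1 differed by 0.81. The 3 genes between the limits were Cfl2 (0.22), Fhl1 (0.09) and Tpm3 (-0.10). Under the minimum lay, among others, the myosin heavy chains and cardiac actin: the developmental myosin heavy chain Myh3 had 22 UMIs in D cells and 9 in the others, the perinatal Myh8 2 and 0, and Actc1, cardiac actin, 55 and 4, of which 32 were in 1 D cell.

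**Figure D2:**
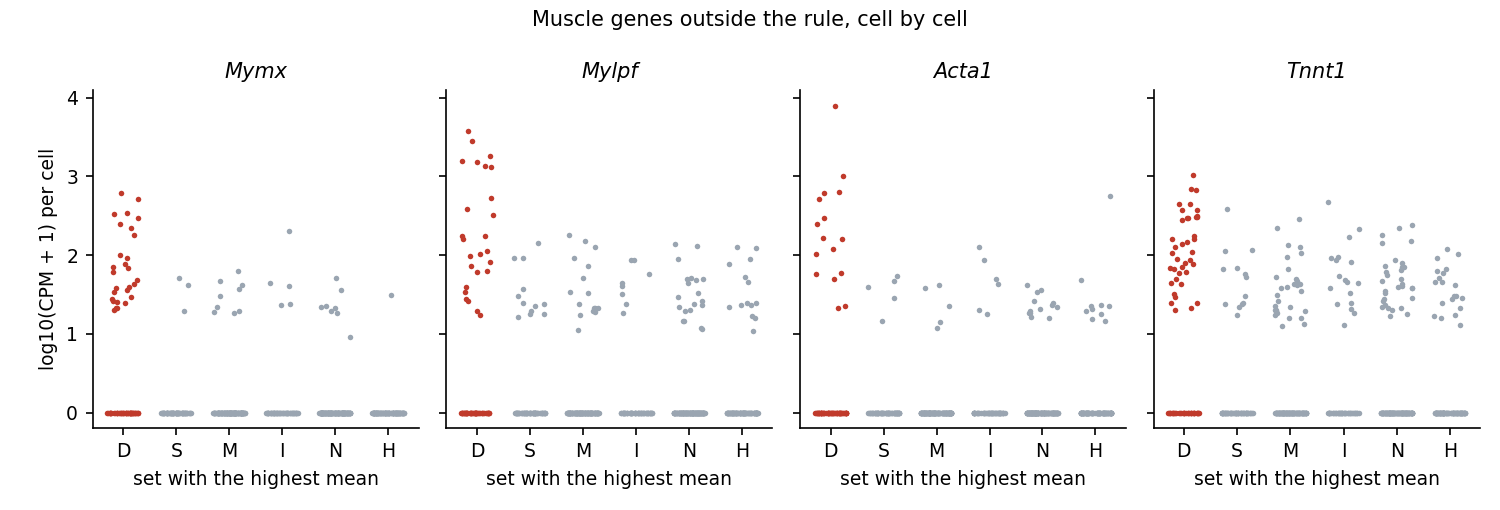
Level per cell, as log10(CPM + 1), of Mymx, Mylpf, Acta1 and Tnnt1 by the set with the highest mean (72 D cells in red, then 72 S, 139 M, 62 I, 150 N and 108 H cells in grey), each point 1 cell. UMIs of these genes are seen in 28, 26, 16 and 39 D cells, most cells of every other class are at 0, and for each gene the highest point is a D cell.

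Because a cell is counted as expressing a gene when any UMI is seen, the shares were also taken after thinning each cell to 20000 UMIs. Mylpf then had UMIs in 29.2% of D cells and 6.59% of the others, Acta1 in 19.4% and 3.01%, Tnnt1 in 45.8% and 14.1%, and Myog in 61.1% and 11.5%. Before thinning, at median depths of 42995.5 and 47756 UMIs, Mymx had UMIs in 38.9% of D cells, and after it in 27.8% (17.9 to 39.6) against 2.82% (1.59 to 4.62). Free RNA can give UMIs to any droplet. For comparison, shares were taken in 1499 shallow barcodes of 2000 to 10000 UMIs (median 4404), which may hold cells with RNA of their own. They had UMIs of Acta1 in 7.94%, Tnnt1 in 6.20%, Mylpf in 3.20%, Myog in 1.47% and Mymx in 0.267%. The share for Acta1 in the other deep barcodes (3.01% at 20000 UMIs) is not above that of the shallow barcodes. The thinned shares in D cells are above those of the shallow barcodes for Mymx, Mylpf, Acta1 and Tnnt1 (Myog chose the cells). Because the depths differ and the shallow barcodes may hold cells, the part that free RNA had in these shares was not tested.

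The promoters of a regulator and of 3 of the genes it accompanies are shown because the E-box (CANNTG) is the DNA letter pattern to which Myod1 and Myog bind. Each window runs from 250 bases before to 50 after the start of transcription (RefSeq, GRCm38.p6) and is written 5′ to 3′ on the strand of its gene. Capitals mark every exact match, on either strand, to CANNTG, to the MEF2 box YTAWWWWTAR and to the CArG box CCWWWWWWGG. Here Y is C or T, W is A or T, R is A or G and N is any base. Near matches stay in lower case, such as ctatatttat in the Myog window, which misses the MEF2 pattern only in its last letter. The pattern CAGCTG is one of the CANNTG patterns and overlaps them wholly. Myog lies at chr1:134289754-134290053 (plus strand), Mylpf at chr7:127211358-127211657 (plus), Acta1 at chr8:123894726-123895025 (minus) and Tnnt1 at chr7:4515926-4516225 (minus).
Myog: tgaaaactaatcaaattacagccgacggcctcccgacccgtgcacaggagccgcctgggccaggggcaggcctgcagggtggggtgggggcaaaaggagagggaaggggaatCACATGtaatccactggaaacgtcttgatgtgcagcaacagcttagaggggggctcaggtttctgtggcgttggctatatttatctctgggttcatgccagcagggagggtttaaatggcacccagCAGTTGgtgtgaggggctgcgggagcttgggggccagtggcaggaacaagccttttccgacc
Mylpf: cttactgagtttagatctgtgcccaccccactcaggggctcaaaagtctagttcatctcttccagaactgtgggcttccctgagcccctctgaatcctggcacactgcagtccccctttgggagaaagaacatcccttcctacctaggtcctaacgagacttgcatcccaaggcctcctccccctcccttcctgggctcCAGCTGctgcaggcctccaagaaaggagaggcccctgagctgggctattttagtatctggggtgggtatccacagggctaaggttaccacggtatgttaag
Acta1: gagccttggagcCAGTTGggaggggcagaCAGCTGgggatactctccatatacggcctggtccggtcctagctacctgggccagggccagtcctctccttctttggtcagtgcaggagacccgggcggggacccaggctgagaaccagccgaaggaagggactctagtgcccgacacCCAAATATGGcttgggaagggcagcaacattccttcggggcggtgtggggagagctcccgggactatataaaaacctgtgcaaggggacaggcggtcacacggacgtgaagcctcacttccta
Tnnt1: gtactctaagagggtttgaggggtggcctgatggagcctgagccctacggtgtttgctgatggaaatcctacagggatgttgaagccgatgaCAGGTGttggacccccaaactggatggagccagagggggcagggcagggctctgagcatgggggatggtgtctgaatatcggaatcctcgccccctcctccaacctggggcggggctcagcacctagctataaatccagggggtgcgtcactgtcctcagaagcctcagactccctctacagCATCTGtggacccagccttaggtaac
Counted from the start site, Myog has a CANNTG at -138 and -12, Mylpf 1 at -51, Acta1 2 at -238 and -221 with a CArG box (the pattern bound by serum response factor) at -73, and Tnnt1 2 at -158 and 24. A CANNTG is common, being in 72.3% of all 32851 windows of this length. CAGCTG, the form found in Mylpf and in Acta1, is in 16.3% of all windows. Of the 15 highest genes 12 had a window, and of the 10 with a single window 4 held CAGCTG, namely Mylpf, Myl1, Atp2a1 and Acta1, where 16.1% of all genes with a single window did. A MEF2 box was in 1 of the 10 (Ckb) and in 3.19% of all windows. These matches describe letters and are no evidence of binding in the cells.

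Genes of excitation and of the neuromuscular junction were the next group. Of 33 on the list 17 reached the minimum. Of these 11 were higher and 0 lower, beside 4.92% and 12.3% of all genes, and the median difference was 0.70. Stac3, an adaptor of the calcium channel that triggers contraction, had 92 UMIs in D cells and 143 in the others (2.23), and Cacng1, a subunit of that channel, at 47.6 against 16.0 CPM (1.52). The acetylcholine receptor was represented by Chrng (the fetal gamma subunit, 1.68), Chrnd (1.04) and Chrna1 (0.75). Chrna1 was the most abundant of them and not particular to D cells, with UMIs in 71 of 72 D cells and 524 of 531 others at 464 and 276 CPM. Musk, the receptor kinase that gathers acetylcholine receptors under the nerve ending, stood at 14.5 against 6.29 CPM. Ryr1, the calcium release channel, lay under the minimum with 46 UMIs in D cells and 94 in the others.

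Of the fusion and adhesion list, 20 of 36 genes reached the minimum. Of these 7 were higher and 0 lower, beside 4.92% and 12.3% of all genes, and the median difference was 0.17. Mymx, which completes fusion after Mymk has brought the membranes together, stood at 45.4 against 1.47 CPM, a log2 difference of 4.23 (3.94 without its highest cell), and passed the minimum only through the D cells. Without it 6 of 19 genes were higher. It had UMIs in 28 D cells, and 24 of these also had UMIs of Mymk. The other 6 had smaller differences, between 0.63 and 0.93. They were Lrrn1 (0.93), the tetraspanin Cd81 (0.82), M-cadherin Cdh15 (0.80), the membrane-bending protein Bin1 (0.79), the cadherin co-receptor Cdon (0.66) and the adhesion molecule Ncam1 (0.63). Cdon fell under 1.5-fold without its highest cell, at 0.46. Summed per cell, the list had a median of 1497 CPM in D cells and a higher one, 1699, in I cells. Cav3, caveolin of muscle membranes, lay under the minimum with 20 UMIs in D cells and 10 in the others.

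Few of the myogenic regulators apart from Myog differed. Of 25 on the list 20 reached the minimum. Of these 3 were higher and 2 lower, beside 4.92% and 12.3% of all genes, and the median difference was 0.24. Mef2a, a partner of the myogenic factors at muscle promoters, stood at 124 against 43.2 CPM, with UMIs in 62 D cells. Its relative Mef2c lay under the minimum, with 39 UMIs in D cells and 21 in the others, 27 of the 39 from 1 cell. Myod1 had UMIs in 67 of 72 D cells and stood at 392 against 191 CPM (1.03). Against the M cells, where Myod1 stood at 319 CPM, its difference was 0.30, and the per-cell medians of 262 CPM in D and 260 CPM in M cells were close. Myod1 was thus higher than in the N cells (78.7 CPM) and I cells (140 CPM) but within 1.5-fold of the M cells.

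The lower members of that list were Msc (musculin, a repressor of Myod1, 2.84 against 12.7 CPM, 9 UMIs in D cells) and Eya1 (-0.68, 21 UMIs). Pax7, the stem cell factor, was called higher at 12.0 against 7.27 CPM (0.65), with 38 UMIs in 18 D cells. That call rests on shared barcodes and on few cells, since it was 0.35 without the shared barcodes and 0.46 without the highest cell. The I cells stood above D cells in Pax7, at 14.2 CPM. Myf5, the other early factor, stood at 29.3 against 36.8 CPM, and Id1, an inhibitor of E-box binding, at 75.1 against 76.7 CPM, both within the limits.

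**Figure D3:**
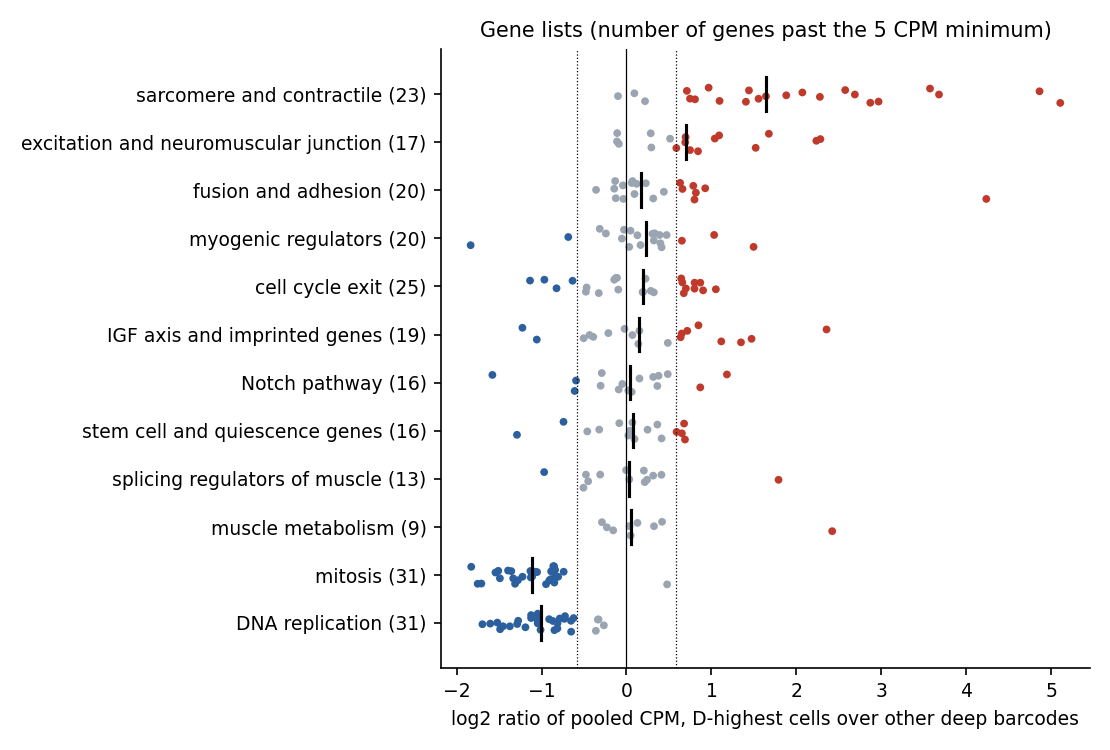
Log2 ratio of summed CPM (1 CPM added to each) between the 72 D cells and the other 531 deep barcodes, each point 1 gene that reached the 5 CPM minimum, by gene list, with the number of genes in brackets and the list median as a black bar. Dotted lines mark 1.5-fold, with higher genes in red and lower genes in blue, and the medians are 1.64 for sarcomere and contractile genes, 0.70 for excitation genes, -1.01 for DNA replication and -1.11 for mitosis.

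The cell cycle exit list, which holds brakes such as the kinase inhibitors and also their targets, the cyclins and kinases, was mixed. Of 27 on the list 25 reached the minimum, of which 9 were higher and 4 lower, with a median of 0.20. Over all genes the shares were 4.92% and 12.3%. Against I, N and H cells 4 of the 25 were higher and 4 lower, or 16% each, beside 6.59% and 13.3% of all genes. Summed per cell, the list had a median of 1994 CPM in D cells, 1891 in N and 1850 in H cells. Cdkn1a, the kinase inhibitor p21, had UMIs in 72 of 72 D cells and stood at 670 against 420 CPM (0.67). Its level in D cells was not far from that of the N cells (591 CPM), and it was 1.48 above the M cells and 1.08 above the S cells on the log2 scale. Without the D cell richest in it, Cdkn1a fell just under 1.5-fold, at 0.57. Gadd45a and Ccng1, both p53 targets, differed by 0.90 and 0.87. Of the D-type cyclins Ccnd3 stood at 120 against 68.3 CPM (0.80) and Ccnd2 at 12.6 against 5.57 CPM (1.05, in 13 D cells), while Ccnd1 differed by 0.32. The 4 genes lower than in all the other deep barcodes together were Rbl1 (p107, -1.13, 8 UMIs), Cdkn2b (-0.97, 18 UMIs), Cdk2 (-0.82, 20 UMIs) and Cdkn2c (-0.63, 35 UMIs).

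Replication and mitosis genes were lower almost throughout. Of the replication list 31 of 35 genes reached the minimum, with 0 higher, 27 lower and a median of -1.01. Of the mitosis list 31 of 35 reached it, with 0 higher, 30 lower and a median of -1.11. Among all genes 4.92% were higher and 12.3% lower. Among the lowest were Mcm10 (-1.70), Ung (-1.60), Cdc6 (-1.52) and Mcm3 (-1.49), which prepare or repair replicating DNA. Top2a, the topoisomerase that untangles chromosomes, stood at 22.7 against 78.8 CPM with UMIs in 22 D cells, and the kinetochore gene Ndc80 (-1.83), Kif20a (-1.71) and Prc1 (-1.54) were lower too. The exception was Pttg1 (securin), at 27.8 against 19.7 CPM (0.48).

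The direction of these 2 lists is partly set by the choice, since a D cell must have set D above sets S and M. A closer comparison is with the 320 I, N and H cells, which the choice also placed with sets S and M under another set. Against them 571 genes (6.59%) were higher and 1154 (13.3%) lower in D cells, and 16 of 31 replication genes (median -0.59) and 15 of 31 mitosis genes (median -0.57) were lower. Summed over the list, mitosis genes had a per-cell median of 313 CPM in D cells (41.9 to 4466), against 838 in I, 785 in N and 982 in H cells. For replication genes the medians were 508 CPM (31.5 to 2761) in D cells, 773 in I, 1008 in N and 1131 in H cells. The D cells were therefore the class with the lowest median on both lists, and the ranges overlapped.

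Both lists were below the median of the other barcodes in 53 of 72 D cells, or 73.6% (61.9 to 83.3). That held for 159 of 320 I, N and H cells, or 49.7% (44.1 to 55.3). The remaining D cells were above on at least 1 list, 15 on replication and 13 on mitosis. Of the 33 D cells with 5 or more Myog UMIs, 8 were above on replication and 6 on mitosis, and 18 of the 22 D cells with Top2a UMIs also had Myog UMIs. High Myog and RNA of mitotic genes thus occurred in the same barcode in some cases, and whether any of these barcodes held 2 cells was not tested, since the doublet caller used had not worked here.

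**Figure D4:**
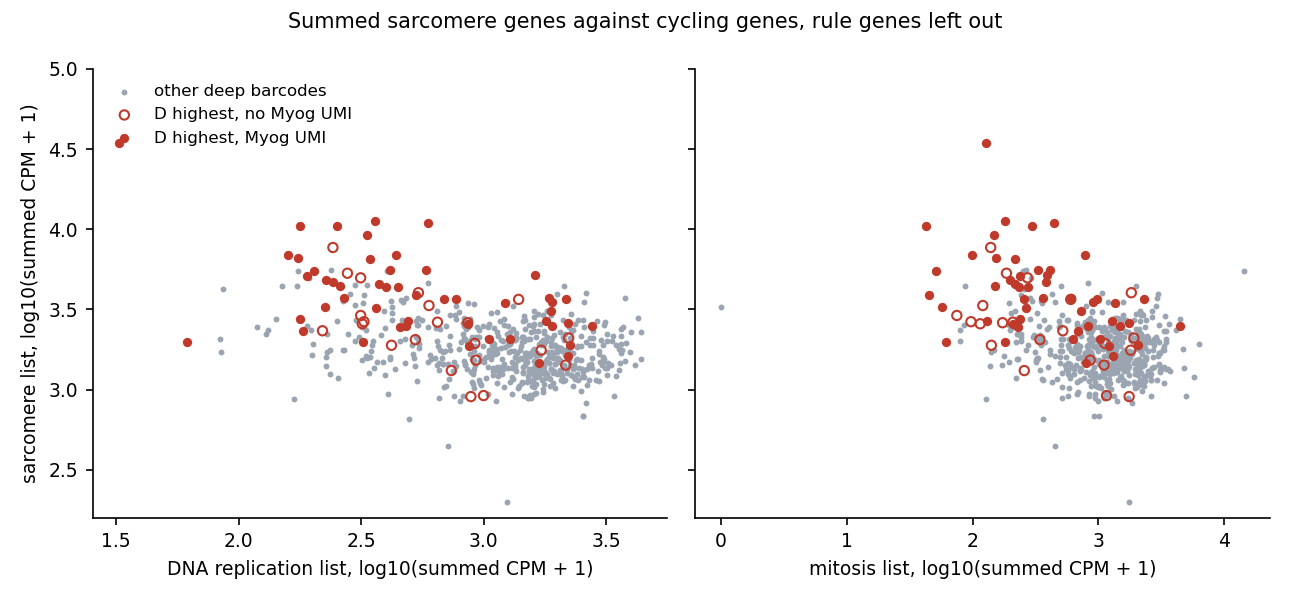
Summed level per cell of the sarcomere and contractile list (vertical axis) against the DNA replication list (left) and the mitosis list (right), all as log10(summed CPM + 1) and without the set genes, each point 1 cell. D cells (red, filled with a Myog UMI and open without) lie above and to the left of most other deep barcodes (grey), 11 of the 72 being above the highest other barcode on the contractile list.

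Summed per cell, the contractile list was higher in most D cells, and the groups overlapped. The list took 903 to 34693 CPM in D cells (median 3250) and 199 to 5600 CPM in the others (median 1692). In 65 of 72 D cells it was above the median of the others, in 34 above their 95th percentile and in 11 above their highest cell. The medians of the other classes lay between 1622 CPM (N) and 2085 CPM (I). Of the 8660 genes 884 (10.2%) were higher and 1180 (13.6%) lower in D cells than in S cells, and 822 (9.49%) higher and 1426 (16.5%) lower than in M cells, and the contractile list had a median difference of 1.84 and 1.85. Against I, N and H cells 20 of 23 contractile genes (median 1.55) and 10 of 17 excitation genes (median 0.81) were higher, beside 6.59% of all genes. The 23 include Acta1, Myl4 and Tnni1, which passed the minimum only through the D cells.

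The D cells differed among themselves in their contractile genes, which were higher in the D cells with more Myog. Myog helped to choose these cells, so a D cell without it entered through Mymk, Cdkn1c or Ak1. The groups by Myog therefore describe the chosen cells and are no support for the choice. Among the 72 D cells 22 had no Myog UMI, 17 had 1 to 4 and 33 had 5 or more. The summed contractile list had medians of 2450, 2691 and 4379 CPM in these groups, and 17 of 22, 15 of 17 and 33 of 33 cells were above the median of the other barcodes. Mymx stood at 2.1, 4.1 and 93.3 CPM, Mylpf at 1.0, 44.2 and 398 CPM, and Tnnt1 at 2.1, 26.2 and 210 CPM. Myod1 did not follow, at 447, 333 and 386 CPM. The mitosis list had medians of 307, 267 and 329 CPM and the replication list of 622, 529 and 398 CPM.

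Several muscle genes were mostly seen together with Myog, whose UMIs were in 50 of the 72 D cells, and others were not. Of the 28 D cells with Mymx UMIs 27 had Myog UMIs, as did 25 of 26 with Mylpf, 15 of 16 with Acta1 and 38 of 39 with Tnnt1. No Myog UMI accompanied Neb in 10 of 42 D cells, Tnnt3 in 8 of 45, Tnnc2 in 4 of 15, Atp2a1 in 4 of 24 and Ttn in 17 of 66. Over the 72 cells of this 1 capture, the rank correlation of Myog with the contractile list was 0.57, with the replication list -0.22 and with the mitosis list -0.04, and that of the contractile list with the total UMIs was -0.10. Mymk (0.45), Cdkn1c (0.35) and Ak1 (0.29) ran less closely with the contractile list. The 34 D cells with a lead of at least 0.5 had a contractile median of 4366 CPM and the 38 with a smaller lead one of 2537 CPM. Because Myog, Mymk, Cdkn1c, Ak1 and the lead belong to the choice, these values describe the chosen cells only.

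**Figure D5:**
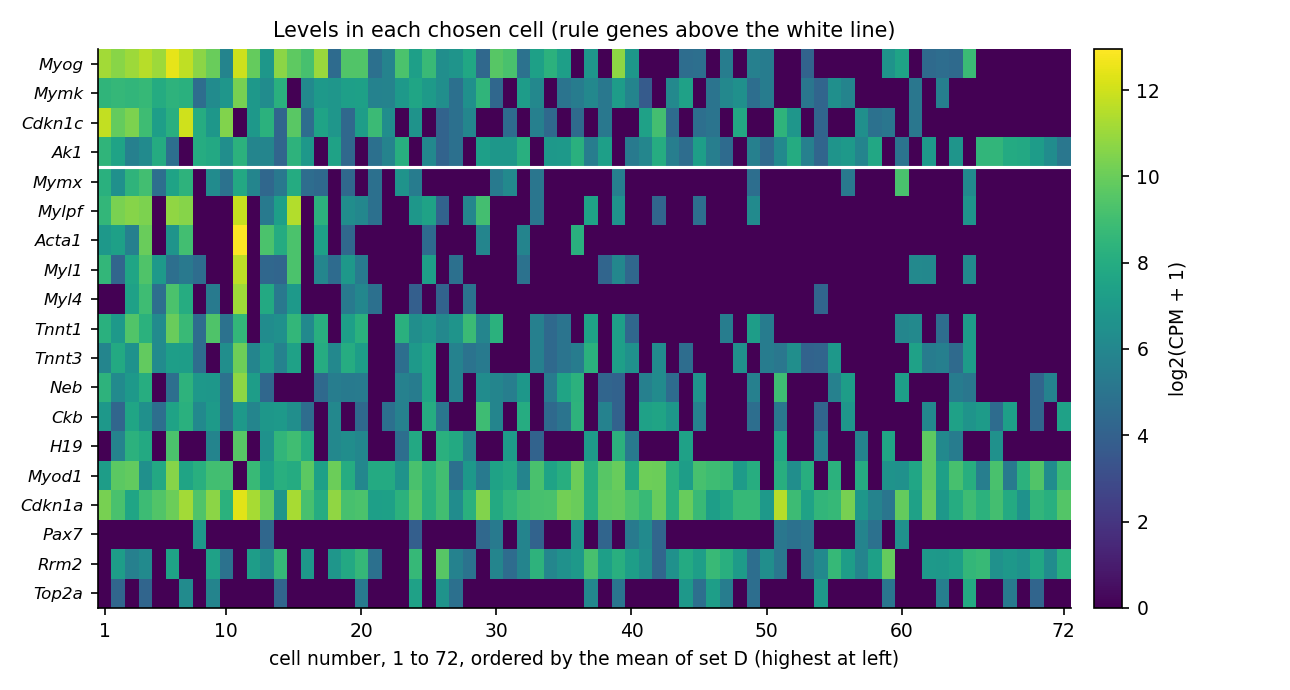
Level, as log2(CPM + 1) by colour, of the 4 set D genes (above the white line) and 15 other genes in each of the 72 D cells, 1 column per cell, ordered by the mean of set D with the highest at the left. Mymx, Mylpf, Acta1, Myl1 and Myl4 gather at the left where Myog is high, Myod1 and Cdkn1a run through nearly all columns, and the last cells at the right have Ak1 alone of the 4 set genes.

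Smaller groups were mixed. In the Notch pathway, through which neighbouring cells hold each other in the stem state, 2 of 16 genes were higher and 3 lower. Over all genes the shares were 4.92% and 12.3%, and the list median was 0.04. Dll1, a Notch ligand, stood at 24.9 against 10.4 CPM (1.18) and Hes6, which antagonises Notch targets, at 119 against 64.7 CPM (0.87), while the receptor Notch2 stood at 4.73 against 16.1 CPM (-1.58). Dll1 and Notch2 thus differed in opposite directions, which says nothing of the other ligands and receptors on the list. Summed per cell, the list had a median of 248 CPM in D cells and a higher one, 330, in I cells. Of the IGF axis and imprinted genes 8 of 19 were higher and 2 lower, beside 4.92% and 12.3% of all genes. Against I, N and H cells 5 were higher and 4 lower, beside 6.59% and 13.3% of all genes. The summed list had a median of 779 CPM in D cells and 753 in I cells. H19 stood at 92.5 against 17.3 CPM, Mest at 329 against 152 CPM (1.12), and the IGF-binding proteins Igfbp5 at 178 against 69.5 CPM (1.35) and Igfbp4 at 28.7 against 9.71 CPM (1.47). The insulin receptor substrate Irs2 (-1.22, 6 UMIs) and the imprinted zinc finger gene Plagl1 (-1.06, 8 UMIs) were lower. Igf2, the growth factor gene next to H19, had 0 UMIs in D cells and 2 in the others by short reads, while long reads of the 10 percent library gave 1 in its 8 D cells and 54 in 70 others.

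Of the stem cell and quiescence genes 4 of 16 were higher and 2 lower, against 4.92% and 12.3% of all genes. The higher ones were Fgfr4 (0.69), Cd82 (0.68), Pax7 (0.65) and the syndecan Sdc3 (0.59), and the lower ones Foxo3 (-1.29) and Hs6st2 (-0.74). Against I, N and H cells 1 of the 16 was higher and 1 lower, or 6.25% each, beside 6.59% and 13.3% of all genes. Summed per cell, the list had a median of 652 CPM in D cells and a higher one, 738, in I cells. Of the splicing regulators of muscle 1 of 13 was higher and 1 lower, shares near those over all genes. Rbm24, which favours muscle exons, stood at 69.7 against 19.5 CPM (1.79), and Ptbp1, a repressor of such exons, at 94 UMIs against 1567 (-0.97). Of the metabolic genes 1 of 9 was higher and 0 lower, beside 4.92% and 12.3% of all genes. The higher gene was Ckb, at 67.8 against 11.9 CPM (2.42). Muscle enolase, Eno3, was abundant in both groups, at 693 against 518 CPM. Ckm, the creatine kinase of mature muscle, had 12 UMIs in D cells and 20 in the others.

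The 10 lowest genes had at most 15 UMIs each in D cells. They were Trib3 (-2.92, 3 UMIs), Ccl5 (-2.68), Pxdc1 (-2.64), Cxcl10 (-2.58), Hjurp (-2.35), Timp3 (-2.34), Smim3 (-2.34), Nek2 (-2.24), Gpsm2 (-2.23) and Aunip (-2.18). Several serve division, Hjurp by loading the centromere histone, Nek2 at the centrosome and Gpsm2 at the spindle. Ccl5 and Cxcl10 are chemokines, and Ccl5 came from 38 of the 531 other cells. The value of Ccl5 turned to 1.79 when Myog was left out of set D and to 1.97 when Mymk was, so its side depends on which cells are chosen.

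Markers of other cell types were sparse but not absent in D cells. Of 17 immune genes 8 had no UMI, among them Ptprc (by the choice), Lyz2, C1qa, Adgre1 and Cd3e, and the list had 65 UMIs in all, led by Laptm5 with 32. Its summed level ran from 0 to 330 CPM in D cells and from 0 to 314 in the others, and pooled it was 20.5 against 7.4 CPM. Of 12 endothelial genes 5 were at 0 (Kdr, Flt1, Tie1, Esam and Emcn) with 29 UMIs in all. Of 5 erythroid genes 1 was at 0, with 29 UMIs in 9 D cells and 9.2 against 2.1 CPM pooled.

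The fibroblast and tendon list had 615 UMIs in D cells, led by Gsn (183), Scx (159) and the collagen Col1a2 (143, at 45.1 against 56.2 CPM). Pdgfra, Lum, Mfap5, Cxcl14 and Comp were at 0, and Scx (50.2 against 17.4 CPM) and Gsn (57.7 against 27.8 CPM) were higher, with 194 against 155 CPM for the whole list (0 to 1444 per D cell, 0 to 4406 per other cell). Of the mural list Myh11, Pdgfrb, Kcnj8, Cnn1 and Higd1b were at 0, while Acta2, smooth muscle actin, stood at 85.2 against 39.3 CPM. The mature myofibre list shares 9 of its 15 genes with the contractile list. Of its 8 measured genes 7 were higher, beside 4.92% of all genes. Acta1 passed the minimum only through the D cells, and with the minimum over the other barcodes alone 6 of 7 were higher. The whole list stood at 1380 against 609 CPM pooled, from 124 to 15584 CPM per D cell and from 0 to 2193 per other cell. The part that RNA of broken myofibres, of other cells or of 2 cells in 1 droplet had in these results was not tested.

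Of the 9 quality and dissociation genes measured, 0 were higher and 3 lower, beside 4.92% and 12.3% of all genes: Ddit3 (-1.41), Ier2 (-1.13) and Jun (-0.94). Their direction is partly set by the choice, since a D cell must have set D above sets N and H. The list median was -0.53 against all other barcodes, -0.18 against S cells and 0.08 against M cells. Summed per cell it was 1868 CPM in D cells, 1150 in S, 1198 in M, 2470 in I, 2938 in N and 2135 in H cells. Malat1, a nuclear RNA that rises when cytoplasm is lost, stood at 2947 against 2167 CPM and reached 39296 CPM in 1 D cell. The small nuclear RNA Rn7sk had a median of 0 in D cells and reached 5180 CPM in that same cell. This cell also had the highest mitochondrial share of the D cells (4.05%). Its contractile list stood at 7700 CPM, above the 5600 CPM of the highest other barcode.

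In the 10 percent library the same rule gave 8 of 78 deep barcodes, or 10.3% (4.53 to 19.2). Of these 8, 7 were D cells in the 90 percent library, so the table is largely a second reading of the same cells and not a replicate. Of the 8 D cells that were deep there, 7 again had set D highest and 1 had set M. With so few cells 1590 of 8483 genes (18.7%) were higher and 2205 (26%) lower. Of the 15 highest genes 13 were on the same side of 0 there, the exceptions being Tmem38a and R3hdml (both -0.23), and 10 of the 10 lowest were. Acta1 stood at 128 against 1.90 CPM, a log2 difference of 5.48.

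Long reads of that library gave isoform counts for the 8 D cells, chosen from the short reads, and 70 other deep barcodes. Among those 8 D cells, Myog had long-read UMIs in 3, Mymk and Ak1 in 6 each and Cdkn1c in 8. Most of the 8 cells thus had no long-read Myog UMI. Of 39 contractile, splicing and differentiation genes looked up, 21 had at least 50 long-read UMIs in both groups. Tpm1, a tropomyosin that winds along actin and is known for many splice forms, showed the largest gain of an isoform. Tpm1-205, a 10-exon protein-coding form on chromosome 9 (67027892 to 67049213), took 169 of 673 UMIs in D cells (25.1%) and 458 of 4529 in the others (10.1%), a difference with an interval of 11.7 to 18.5 points. In the 6 D cells with at least 20 Tpm1 UMIs its share was 16.8 to 33.3% (median 25.4), and in 54 others 0 to 33.8% (median 6.76). All 6 lay above the median of the others and within their range.

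For 5 other genes the isoform with the largest difference was lower in D cells, while other isoforms of Gsn, Tpm2 and Actn1 took larger shares there, by up to 13.8, 13.7 and 10.4 points. Tpm2-203 took 9 of 177 UMIs against 144 of 564, a difference of -20.4 points. Single cells varied, since 7 of those 9 UMIs came from 1 D cell and the median share in the 5 other cells with at least 20 Tpm2 UMIs was 9.68%. Myl6-206, of the non-muscle myosin light chain, took 22 of 245 against 454 of 2248, a difference of -11.2 points, with 0 to 92.1% (median 16.2) in 48 other cells and 6.40 to 18.4% in 3 D cells. Gsn-201 of the actin-severing protein gelsolin took 11 of 95 against 148 of 416, a difference of -24.0 points, but 57 of those 95 UMIs came from 1 D cell. An assembled form of Acta2 differed by -13.0 points with 67 of its 91 UMIs from 1 D cell, and an assembled form of Actn1 by -14.7 points. Myog and Mymk each showed 1 isoform.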

How the data were processed

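Unique molecular identifier (UMI) counts per gene and barcode were deposited by the authors for both libraries, made with scPipe, and long-read UMI counts per isoform for the 10 percent library, made with FLAMES. The submitters' processing notes name GRCm38.p6, Cell Ranger 1.3 and minimap2 2.17. The 90 percent table held 3001 barcodes and 39044129 UMIs, while that of the 10 percent library held 1991 barcodes and 6772259 UMIs. From these counts, levels were summed over cells as CPM, with exact Poisson 95% intervals, and shares had exact binomial ones (Clopper-Pearson). Genes with a mean of at least 5 CPM over the deep barcodes were compared, outside the set genes. Named genes are the 15 highest and 10 lowest by log2 ratio and up to 5 per list. Values for other genes were chosen after they were seen. Cells, lists and rules were chosen with earlier results of these data known. The scripts were tested on simulated data. Shallow barcodes of 2000 to 10000 UMIs, which may hold cells, were set beside the deep ones and do not measure free RNA alone. Scrublet in scanpy 1.11.5 called 3 of 2420 barcodes doublets (0.124%) and 0 D cells, so it had not worked and no doublets were removed. Python 3.11.15, NumPy 2.4.6, SciPy 1.17.1, pandas 2.3.3 and matplotlib 3.10.9 were used. The result of 1 further marker list is not reported here.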

Additional observations from a re-analysis of the deposited data

How the results depend on the processing

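No paired analysis was possible because all cells came from 1 capture, with no replicates. Requiring set D to lead by at least 0.5 left 5.64% of the deep barcodes, and genes higher and lower then numbered 794 and 1671 in place of 426 and 1063. Adding 5 CPM gave 259 and 607, a 20 CPM minimum 136 and 369, no minimum 1980 and 2222, and a 2-fold limit 114 and 309. Set D without Ak1 left 689 lower genes, and S and M cells as the comparison gave 761 higher ones. Leaving out the D cell richest in each gene, an alternative chosen after seeing the data, gave 268 higher and 1599 lower genes. A minimum over the other barcodes alone, also chosen after seeing the data, gave 401 and 1108. Ccl5 turned to 1.79 without Myog and to 1.97 without Mymk in set D. Of 225 list medians 222 and of 375 values of named genes 304 moved by less than 1.5-fold, and 2 of the latter turned in sign. The median of the contractile list ran from 1.49 to 2.06 and that of the mitosis list from -2.01 to -0.60. The cause was not tested where values moved. Depth limits genes of few UMIs, such as Myh3 and Myh8, which were not compared.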

Other observations

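Clustered histone genes, taken by their Hist symbols alone and grouped after their values were seen, were lower in D cells. Of 29 measured 21 were lower and 1 higher, beside 12.3% and 4.92% of all genes, with a median log2 difference of -1.49. That direction is partly set by the choice, since a D cell must have set D above set S and the S cells are in the comparison. Summed per cell they had a median of 232 CPM in D cells (0 to 4730), against 1275 in S, 511 in M, 372 in I, 435 in N and 532 in H cells.

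One D cell stood apart by its contractile genes, which took 34693 of its CPM, where the next D cell had 11328. Of its 31764 UMIs 251 were of Acta1, 127 of Myog, 119 of Mylpf, 101 of Myl1, 70 of Myl4, 46 of Ttn and 40 each of Mymk and Tnnc2. It had 7 Mymx UMIs and 0 UMIs of Cdkn1c, Myod1 and Top2a.

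Trib3 and Ddit3, both genes of the integrated stress response, were lower in D cells than in all other deep barcodes together, at 0.947 against 13.7 CPM and 6.94 against 20.1 CPM. Against M cells alone the log2 difference of Ddit3 was 0.02 and that of Trib3 -1.21.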
